A study of Mus musculus with 4 samples.

Results

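Among 34150 epidermal cells of 4 mice, 714 cells (2.09%) carried at least 3 counts of Slurp1 and Slurp2 together and at least 2 counts of 2310046K23Rik, and these cells are called Slurp-positive gated cells here. A barcode was kept as a cell with at least 1200 counts in all and at most 20% of them from mitochondrial genes. The working name for these cells is terminal infundibulum keratinocytes, the infundibulum being the funnel of the hair follicle that opens onto the skin surface. The data bore this name out only in part: most gated cells carried the follicle keratin Krt79, but 105 of the 714 resembled granular cells in their Lce1 counts and few of those had Krt79. Position in the tissue was not measured, so the cells are named by their gate. The gate uses measured counts, and the levels of its 3 genes are therefore a description with no test.

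Slurp1 and Slurp2 encode small secreted proteins of the Ly6/uPAR family that are released by cornifying keratinocytes and act on nicotinic acetylcholine receptors. Loss of human SLURP1 causes a palmoplantar keratoderma, a thickening of the cornified layer. In the interfollicular epidermis, keratinocytes pass from Krt10-positive spinous cells to granular cells, which make loricrin, filaggrin and late cornified envelope (Lce) proteins, and end as dead corneocytes. The infundibulum cornifies as well, next to follicle cells that carry Krt79 and Krt17.

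The cells came from back skin epidermis of female C57BL/6N mice at postnatal day 19, with 2 mice per genotype. All 4 mice carried homozygous floxed alleles of CerS4, a ceramide synthase. Control (ctr) mice were CerS4fl/flK14Cre-, and CerS4epi-/- mice were CerS4fl/flK14Cre+, in which the keratin 14 promoter drives Cre in basal keratinocytes, so that follicle and interfollicular descendants both inherit the deletion. After the filters 8480 and 9086 cells remained in ctr mice 1 and 2, and 9017 and 7567 in CerS4epi-/- mice 1 and 2, with 35007781 to 47960838 counts in the kept cells of a mouse. The 2 ctr mice shared no barcode and neither did the 2 CerS4epi-/- mice, where 87.1 and 77.1 shared barcodes would be expected of independent libraries, whereas pairs of mice of different genotype shared 64 to 102. In every genotype difference below, a capture common to the mice of 1 genotype and the genotype itself cannot be told apart.

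The gate held 152 and 92 cells in the ctr mice and 273 and 197 in the CerS4epi-/- mice. Gated cells were deeper in the CerS4epi-/- mice, with a median of 6650 and 6549 counts per cell against 4596 and 4122.5 in the ctr mice. Their median mitochondrial share was 4.19% and 4.05% in ctr and 5.25% and 4.31% in CerS4epi-/-. Levels below are CPM, the count of a gene scaled to equal totals, of the summed counts of a class of cells in 1 mouse. Fold changes are log2 values with their standard error (SE) from edgeR's quasi-likelihood test on those sums, after a scaling that CPM does not have, so a fold between classes can differ from the ratio of the CPM values. A gene was called at a Benjamini-Hochberg adjusted p under 0.05. In tests of genotype the p rests on the spread between 2 mice per genotype. In comparisons of 2 classes it rests on how repeatable the difference was over the 4 mice.

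The genes of the gate lie at 2 loci. Slurp1 (ENSMUSG00000022596.4, chr15:74596167-74599892 on GRCm39, minus strand) and Slurp2 (ENSMUSG00000075605.4, chr15:74614609-74618542, minus strand) are near each other, and 2310046K23Rik (ENSMUSG00000102308.2, chr3:92439812-92441818, minus strand) is named Sprr5 in a later Gencode release. Slurp1 stood at 798 and 801 CPM in gated cells of the ctr mice and at 858 and 842 CPM in those of the CerS4epi-/- mice. Slurp2 stood at 103 and 139 CPM in ctr and at 231 and 208 CPM in CerS4epi-/-. For 2310046K23Rik the order was the opposite, with 14172 and 12550 CPM in ctr and 8497 and 7796 CPM in CerS4epi-/-. The receptors that Slurp proteins act on were nearly unseen in the gated cells themselves: the 16 nicotinic receptor subunit genes together had 10 counts in all 4 mice.

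The 2 criteria of the gate separated cells unequally. Of the gated cells, 141 had a Slurp sum of exactly 3. Just outside, 621 cells had enough 2310046K23Rik with a Slurp sum of 1 or 2, and another 1967 had a Slurp sum of 0. On the other side, 876 cells met the Slurp criterion with no count of 2310046K23Rik and 116 with exactly 1. Krt79 (chr15:101837767-101848759, minus strand), a keratin of the upper hair follicle, stood at 2104 and 2185 CPM in gated cells of the ctr mice and at 2764 and 2552 CPM in those of the CerS4epi-/- mice, and at 2233 to 3014 CPM in the cells with a Slurp sum of 1 or 2. Slurp-positive cells without 2310046K23Rik had 5.82 to 42.7 CPM of Krt79. Loricrin (Lor, chr3:91987578-91990449, minus strand), the main protein of the cornified envelope, ran the other way, from 3276 to 6991 CPM with 2310046K23Rik and no Slurp count, through 20777 to 26173 CPM in the gated cells, to 44673 to 52674 CPM in the Slurp-positive cells without 2310046K23Rik. Krt15, a basal and follicle keratin, was lower in the same order, from 1517 to 2129 CPM to 540 to 803 CPM and then to 191 to 268 CPM.

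**Figure D1:**
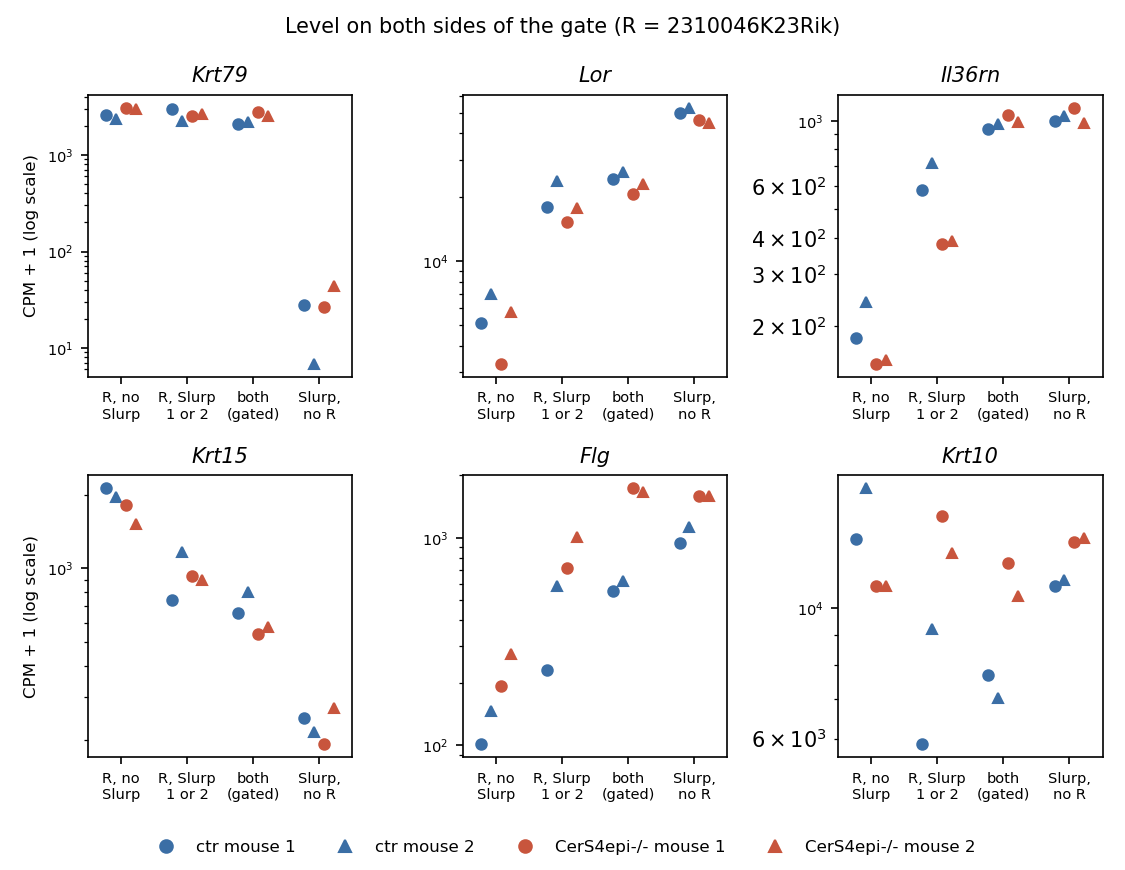
Level of 6 genes (CPM + 1, log axis) on both sides of the gate, with 1 point per mouse, where R stands for 2310046K23Rik. Summed over a class, Krt79 was at least 2104 CPM in each class with 2310046K23Rik and at most 42.7 CPM in Slurp-positive cells without it, while Lor was higher in each class toward the right.

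Gated cells varied in their Lce1 counts, summed over 14 genes of the late cornified envelope family. No Lce1 count was found in 336 gated cells, 273 had 1 to 19, and 105 had 20 or more. Among the 336 cells, 81.9% and 83.3% carried Krt79 in the ctr mice and 89.7% and 88.4% in the CerS4epi-/- mice. Among the 105 cells the shares were 21.7% and 20% in ctr and 20% and 37.0% in CerS4epi-/-, at a median depth of 9727 to 12331 counts per cell against 3702 to 5470 in the 336. The deeper cells therefore had the lower share with Krt79. Lor stood at 6677 to 9475 CPM in the cells without Lce1 and at 57724 to 68214 CPM in those with 20 or more, and 2310046K23Rik stood at 9991 to 17020 CPM in the former and at 3559 to 8356 CPM in the latter. The 105 cells made up 15.1% and 16.3% of the gate in ctr and 14.7% and 13.7% in CerS4epi-/-.

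The comparison with granular cells asked what sets the gated cells apart from interfollicular cornifying cells of the same mice. Granular cells were those with an Lce1 sum of 20 or more and no count of 2310046K23Rik, 1130 cells in all. Follicle genes were far higher in the gated cells and most envelope genes were lower. Of 9109 genes tested, 3633 were called (39.9%), 1755 higher (19.3%) and 1878 lower (20.6%) in the gated cells, so a call alone says little of a gene. The cells were chosen by expression, and the p shows how repeatable a difference was over the 4 mice.

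Krt79 was found in 69.7% and 69.6% of gated cells of the ctr mice and in 74.0% and 73.1% of those of the CerS4epi-/- mice, against 2.84% to 10.8% of the deeper granular cells. Its log2 fold change was 6.47 (SE 0.57, adjusted p = 4.53e-05). Krt17, a keratin of the follicle's outer layers, was even across mice at 9108 and 9114 CPM in ctr and 9310 and 8868 CPM in CerS4epi-/-, against 214 to 426 CPM in granular cells (log2 4.32, SE 0.21, adjusted p = 5.83e-06). Transcription factors of the follicle followed. Sox9, needed for the outer root sheath, stood at 227 to 390 CPM against 6.66 to 15.4 CPM (log2 4.47, SE 0.29, adjusted p = 1.41e-05). Gata6, a factor of the upper follicle and sebaceous duct, stood at 45.4 to 67.6 CPM against 0.482 to 5.15 CPM, the latter from 2 to 9 counts per mouse and given without a fold (adjusted p = 5.86e-05). Of 11 upper follicle markers tested, 8 were higher and none lower, with a median log2 fold change of 2.19 against 0.12 over all genes. In none of these genes did the classes overlap in any mouse. The 2 classes were chosen by the presence or absence of 2310046K23Rik, and Krt79 was low in Slurp-positive cells without it. The follicle gene differences are therefore a description, and the part of that choice in them was not tested.

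Cers2, a synthase of very long chain ceramides, was called higher, at 139 and 133 CPM in gated cells of the ctr mice and 62.9 and 75.7 CPM in those of the CerS4epi-/- mice against at most 6 counts in the granular cells of any mouse, and it is given without a fold (adjusted p = 5.83e-06). Cers3, the synthase of the ultra long chain ceramides of the barrier, went the other way, at 271 to 313 CPM against 591 to 740 CPM (log2 -1.68, SE 0.17, adjusted p = 9.74e-05). The lipoxygenase Alox12b, which acts on those ceramides, was lower as well (log2 -1.76). Of 27 barrier lipid genes tested, 14 were lower and 5 higher.

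Lor stood at 49526 to 63584 CPM in granular cells, above the gated cells in every mouse (log2 -1.83, SE 0.20, adjusted p = 0.000114). Flg2, a filaggrin relative, differed alike (log2 -1.93, SE 0.19, adjusted p = 8.15e-05). Granular cells were chosen by their Lce1 sum, and gated cells of high Lce1 had Lor within or above the granular range. The differences in envelope genes therefore describe classes chosen by a related gene family and are no independent support. Of 16 envelope genes tested 10 were lower and 3 were higher, the latter being Scel, Evpl and Ivl, and of 9 crosslinking and filaggrin processing genes 8 were lower. Flg, a marker proposed for the gated cells, was among the lower ones, found in 30.4% to 54.8% of them against 87.7% to 96.2% of granular cells. Of 4 proposed markers tested, S100a9 was higher, Flg was lower, and Psors1c2 and Il36rn were not called. Small proline-rich genes ran against the direction of most envelope genes: 3 of 6 were higher and none lower, led by Sprr1a, at 4422 to 6957 CPM against 118 to 394 CPM (log2 4.09, SE 0.36, adjusted p = 4.53e-05). Of the other genes that the naming rule put first, Pdzrn3, Sulf2, Krt16, Fst and Hpcal1 were higher, with at most 7 counts in the granular cells of any mouse and therefore without a fold, and Timp3 was higher with 7 to 29 counts there. Kctd4, Tmem229a, 1700123J17Rik, Mid1, Isg15, Lnx1, Cyp4v3, Gramd1c, Plcxd1 and Sod3 were lower, with log2 fold changes from -3.97 to -2.69.

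**Figure D2:**
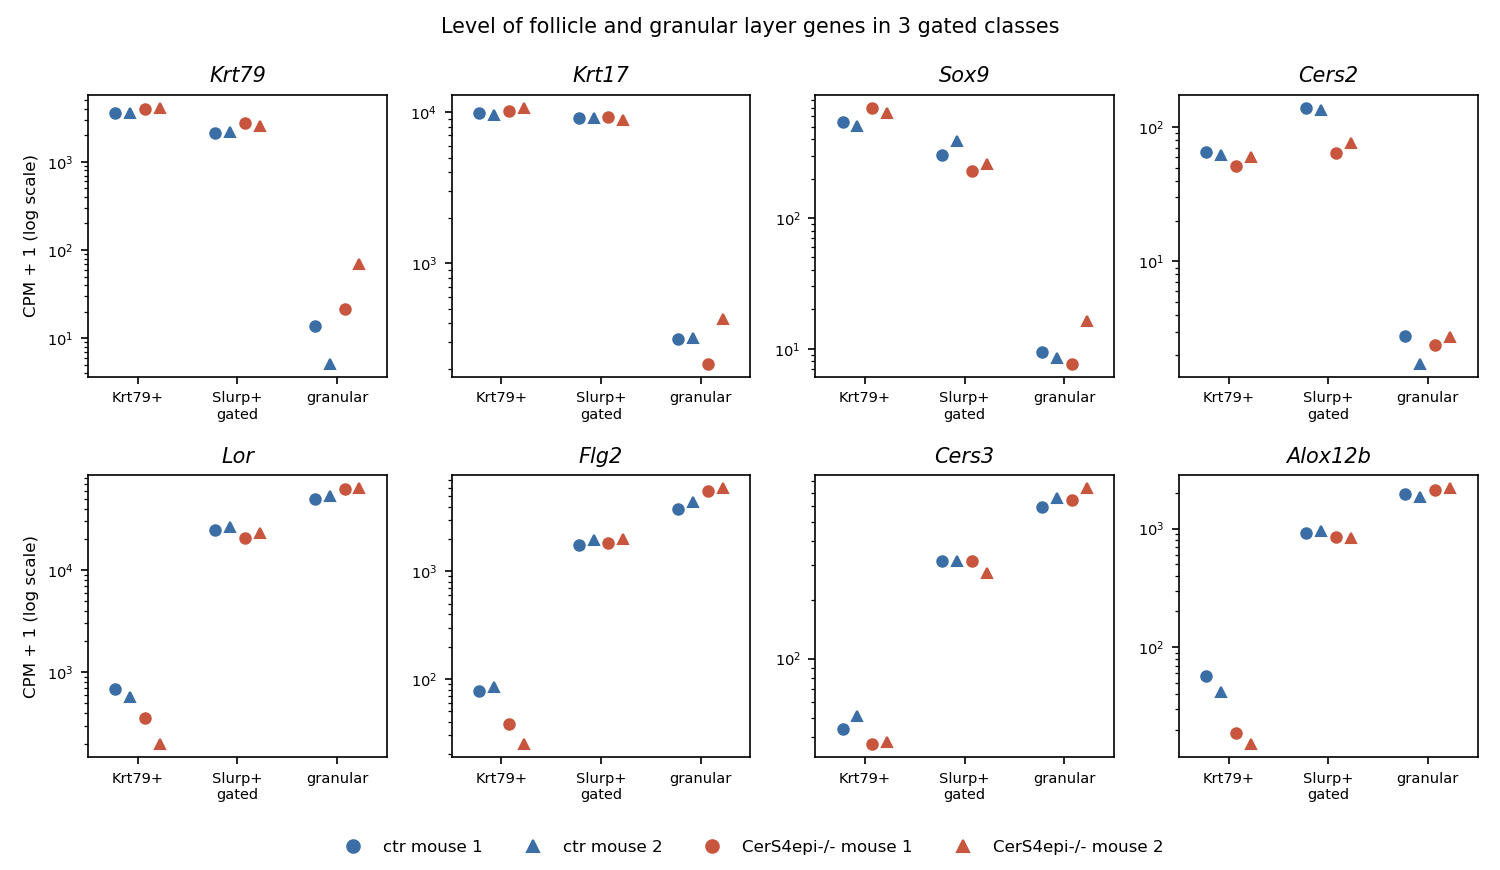
Level of 8 genes (CPM + 1, log axis) in Krt79-positive cells, Slurp-positive gated cells and granular cells, with 1 point per mouse. Krt79 sets the gate of the Krt79-positive class; Krt17 was alike in the 2 left classes, while Lor, Flg2, Cers3 and Alox12b were higher in each class toward the right.

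The comparison with Krt79-positive cells asked the same of the other upper follicle cells. That class had at least 3 counts of Krt79 and no Slurp count, 4264 cells in all, and it also held sebaceous transcripts: 7 sebaceous markers, led by Scd1, summed to 539 to 2577 CPM in it against 72.6 to 110 CPM in the gated cells. Of 10332 genes tested, 4959 were called (48.0%), 2482 higher (24.0%) and 2477 lower (24.0%) in the gated cells. Of 17 envelope genes 15 were higher, as were 9 of 10 crosslinking and filaggrin processing genes, while of 7 small proline-rich genes 1 was higher (Sprr2h), 1 lower (Sprr4) and 5 were not called. Lor stood at 196 to 691 CPM in the Krt79-positive cells (log2 6.20, SE 0.28, adjusted p = 3.11e-07), and Flg2 (log2 5.62), Alox12b (log2 5.36), Lypd5 (log2 4.58) and Casp14 (log2 3.30) were higher in the gated cells too. Of 13 interleukin 1 family genes 10 were higher. The counts include genes proposed as markers of the gated cells, Flg and Psors1c2 among the envelope genes and Il36rn in the interleukin 1 family, which are no independent support. The Krt79-positive class was chosen without Slurp counts, and Lor was higher with Slurp counts across the gate. The part of that choice in the envelope differences was not tested. Il36rn, the antagonist of the interleukin 36 receptor, stood at 940 and 973 CPM in ctr and at 1051 and 993 CPM in CerS4epi-/-, and it was found in 81.3% to 89.5% of gated cells against 11.5% to 19.3% of Krt79-positive cells and 87.6% to 91.0% of granular cells.

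All 6 basal markers tested were lower in the gated cells, among them Krt14 (log2 -2.43, SE 0.21, adjusted p = 1.42e-05), and all 7 sebaceous markers were lower. Elovl3, a sebaceous fatty acid elongase, had no count in the gated cells and was at least 286.6-fold higher in the Krt79-positive cells, with 3 counts over all mice as the limit. Of the genes that the naming rule put first, Lce3c, Krtap3-2, 5430427M07Rik, Aif1l, Lce1m, Ly6m, Fgf22, Lce1f, Lipn and Sod3 were higher in the gated cells, with log2 fold changes from 6.78 to 7.76. Lower ones were Fa2h, Far2, Ces4a, Soat1, Plin2, Cyp2g1 and Serpina3b, each with at most 5 counts in the gated cells of any mouse and given without a fold, and Scd3, which had 1 count in the gated cells (ratio of Krt79-positive over gated cells 170, 95% counting interval 30.4 to 6718). Krt17 did not pass the test (log2 0.21, SE 0.10, adjusted p = 0.108). Of 13 mitochondrial genes 12 were lower in the gated cells.

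Cers4 itself could not serve as a check of the deletion in the gated cells, where it had 1 count in ctr mouse 1 and none in the other mice. In the Krt79-positive cells it stood at 252 and 60.3 CPM in the ctr mice and at 20.4 and 33.2 CPM in the CerS4epi-/- mice, lower in both (of all genes tested between genotypes in these cells 8.88% were called, 4.97% higher and 3.91% lower; log2 -2.53, SE 0.59, adjusted p = 0.0462). The ratio of Krt79-positive over gated cells was 313, with a 95% counting interval of 56.0 to 12365.

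Gated cells made up 1.79% (95% exact binomial interval 1.52% to 2.10%) and 1.01% (0.817% to 1.24%) of kept cells in the ctr mice, and 3.03% (2.68% to 3.40%) and 2.6% (2.26% to 2.99%) in the CerS4epi-/- mice. These intervals cover counting error only. Both CerS4epi-/- mice lay above both ctr mice, with means of 2.82% ± 0.300 and 1.40% ± 0.551 (SD, n = 2) and a ratio of 2.01. The exact two-sided permutation test gave p = 0.33, the smallest value that 2 mice against 2 allow. The higher depth of the CerS4epi-/- cells moved with this share. With every cell thinned to 1200 counts the shares were 0.224% and 0.176% in ctr and 0.50% and 0.49% in CerS4epi-/-, and by the Slurp criterion alone they were 4.04% and 3.50% against 6.84% and 5.66%. A higher share was not particular to the gated cells. Krt79-positive cells made up 8.74% and 6.10% in ctr against 17.1% and 18.9% in CerS4epi-/-. Granular cells went the other way, from 3.64% and 4.64% to 2.68% and 2.07%, and neither share was tested.

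**Figure D3:**
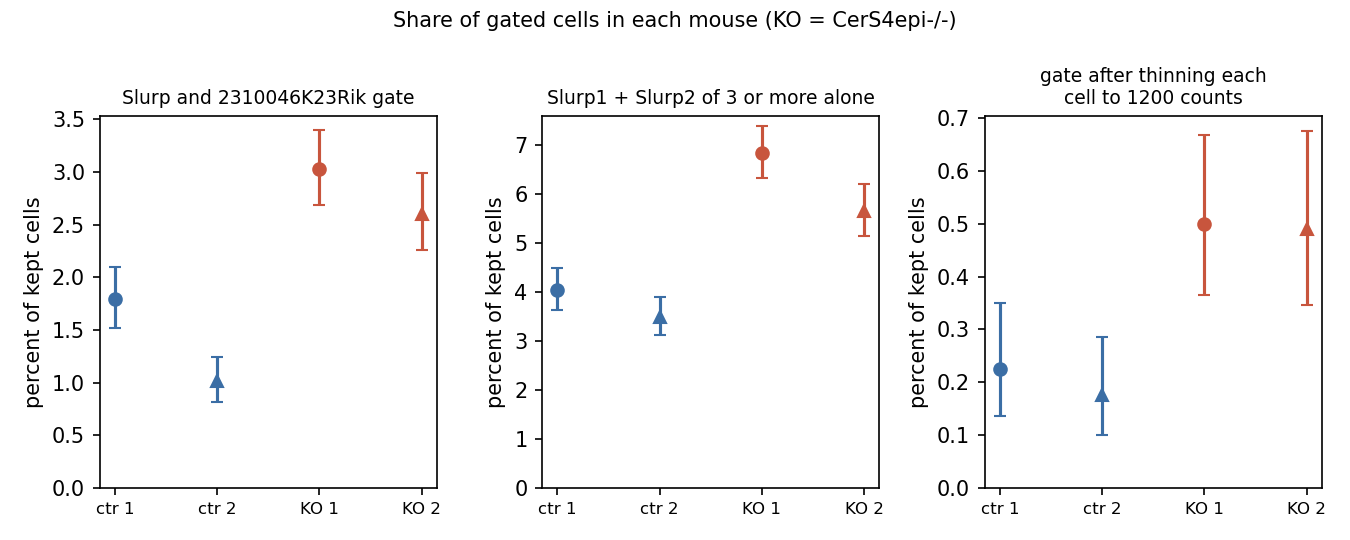
Share of gated cells among kept cells of each mouse (percent, 1 point per mouse, bars for the 95% exact binomial interval, KO for CerS4epi-/-), for the full gate, for the Slurp criterion alone and for the gate after thinning. Both CerS4epi-/- mice lay above both ctr mice in each panel, from 2.6% to 3.03% against 1.01% to 1.79% for the full gate.

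Between genotypes, 200 of 7549 genes tested in the gated cells were called (2.65%), 118 higher (1.56%) and 82 lower (1.09%) in CerS4epi-/-. Filaggrin, the caspase that cleaves it and keratins of the spinous layer were higher in CerS4epi-/-, as were stefins and some stress keratins, while loricrin and most other envelope genes did not pass the test. With a stricter gate (Slurp sum of at least 5 and at least 3 counts of 2310046K23Rik) 56 genes were called, and the calls of the spinous keratins were lost. In bulk sums, fewer cells with a transcript and less transcript per cell cannot be told apart, so the number of cells is given where it was small.

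Flg (chr3:93180830-93200993, plus strand), whose product bundles keratin filaments and is broken down to natural moisturizing factor, stood at 550 and 620 CPM in the gated cells of the ctr mice and at 1737 and 1654 CPM in those of the CerS4epi-/- mice (log2 1.53, SE 0.11, adjusted p = 4.93e-08). It was found in 32.2% and 30.4% of ctr cells and in 53.5% and 54.8% of CerS4epi-/- cells, and after thinning in 19.7% and 26.1% against 39.2% and 44.7%. Casp14, a caspase that cleaves filaggrin, stood at 570 and 544 CPM in ctr and at 1108 and 1066 CPM in CerS4epi-/- (log2 0.95, SE 0.10, adjusted p = 2.04e-05). Neither gene overlapped between genotypes. Blmh, a protease of the last step of filaggrin breakdown, was called too (log2 0.51, SE 0.11, adjusted p = 0.0128), but not without ctr mouse 1 (adjusted p = 0.0809) or ctr mouse 2 (adjusted p = 0.0544). Of 9 crosslinking and filaggrin processing genes 2 rose and none fell. Lor stood at 24459 and 26173 CPM in ctr and at 20777 and 23005 CPM in CerS4epi-/- (log2 -0.22, SE 0.10, adjusted p = 0.285). Of the 17 envelope genes tested 1 rose, Flg, and 3 fell, Psors1c2, Lce1m and Crct1. The falls of Lce1m (log2 -0.76) and Crct1 (log2 -0.60) did not pass without the 105 gated cells of high Lce1 (adjusted p = 0.938 and 0.71), and 85.8% of the Psors1c2 counts of ctr mouse 2 came from 1 cell, a call that was lost when the top cell of each mouse was left out (adjusted p = 0.866).

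Among 14 keratins tested 6 rose and 1 fell, with a median log2 fold change of 0.58 against -0.0020 over all genes. Krt10 (chr11:99276072-99280195), the type I keratin of suprabasal cells, stood at 7703 and 7029 CPM in ctr and at 11906 and 10473 CPM in CerS4epi-/- (log2 0.59, SE 0.10, adjusted p = 0.00156). Krt77, a related type II keratin, stood at 5233 and 5021 CPM in ctr and at 8930 and 7287 CPM in CerS4epi-/- (log2 0.65, SE 0.10, adjusted p = 0.00119). Krt1, the usual partner of Krt10, stood at 289 and 490 CPM in ctr and at 865 and 900 CPM in CerS4epi-/- (log2 1.20, SE 0.16, adjusted p = 0.000292; not called by DESeq2, adjusted p = 0.108). With the stricter gate the calls of Krt10 (log2 0.43, adjusted p = 0.0626), Krt77 (log2 0.38, adjusted p = 0.136) and Krt1 (log2 1.02, adjusted p = 0.108) were lost, and that of Krt77 was also lost with a looser gate (adjusted p = 0.0943). Cells with exactly 2 counts of 2310046K23Rik, the lowest the gate takes, numbered 7 of 152 and 6 of 92 in ctr and 24 of 273 and 19 of 197 in CerS4epi-/-, and their part in these values was not tested. In the 336 cells with no Lce1 count the genotypes overlapped in Krt10, at 6828 and 9096 CPM against 11356 and 7473 CPM. Krt16, a keratin of stressed epidermis, stood at 14.3 and 24.9 CPM in ctr and at 85.4 and 143 CPM in CerS4epi-/- (log2 2.6, SE 0.32, adjusted p = 8.86e-05), from 8 and 6 cells against 52 and 30. Its relative Krt6a was uneven, at 20.3 and 14.5 CPM in ctr and at 69.5 and 947 CPM in CerS4epi-/-, the last from 12 cells (log2 4.77, SE 0.92, adjusted p = 0.00638). It was not called by DESeq2 (adjusted p = 0.0904) or with the stricter gate (adjusted p = 0.0915), its log2 fold change ran from 1.94 to 5.69 without each mouse, and Krt6a and Krt6b share sequence that counting may split. Krt23 fell (log2 -0.45, adjusted p = 0.0165), a call lost without ctr mouse 1, ctr mouse 2 or CerS4epi-/- mouse 1 (adjusted p = 0.0785, 0.101 and 0.0729) and without the cells of high Lce1 (log2 -0.23, adjusted p = 0.595).

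Protease inhibitors of the stefin family rose from near the limit of counting. Stfa3 stood at 8.37 and 4.15 CPM in ctr and at 74.1 and 106.5 CPM in CerS4epi-/- (adjusted p = 5.11e-06), in 3 and 2 cells against 70 and 38. The ctr levels rest on 7 and 2 counts, so no fold is given, and 60.4% of the counts of CerS4epi-/- mouse 2 came from 1 cell. Cstdc5, a near relative, differed alike (log2 3.35, SE 0.27, adjusted p = 3.45e-07), and reads of these close paralogs may be split among them. Cstb, cystatin B, stood at 477 and 660 CPM in ctr and at 1021 and 1742 CPM in CerS4epi-/- (log2 1.28, SE 0.18, adjusted p = 0.000478; DESeq2 adjusted p = 0.185). Of 17 cystatin, serpin and cathepsin genes 5 rose and 1 fell. Among the rises the call of Serpinb12 was lost without ctr mouse 1 (adjusted p = 0.0677), with DESeq2 (adjusted p = 1) and after thinning the sums to equal totals (adjusted p = 0.193). The fall, Ctsl, was not called without ctr mouse 2 (adjusted p = 0.127), with the stricter gate (adjusted p = 0.086) or without the cells of high Lce1 (log2 -0.09, adjusted p = 0.965). Of 10 kallikreins and inhibitors, which control the shedding of corneocytes, 4 rose and none fell, led by Klk10 at 22.7 and 80.9 CPM in ctr against 177 and 338 CPM in CerS4epi-/- (log2 2.46, SE 0.35, adjusted p = 0.000435; DESeq2 adjusted p = 0.385). Its log2 fold change was 1.65 without ctr mouse 1 and 3.48 without ctr mouse 2. The calls of Klk6 and Klk13 were lost without ctr mouse 1 (adjusted p = 0.0529 and 0.236) and that of Klk5 without ctr mouse 2 (log2 0.47, adjusted p = 0.0953) or the cells of high Lce1 (log2 0.48, adjusted p = 0.062), at values near that with all cells (log2 0.49).

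Of 9 genes of inflamed keratinocytes tested 5 rose and none fell. Ccl20, a chemokine for cells with CCR6, stood at 8.37 and 8.30 CPM in ctr and at 61.6 and 45.6 CPM in CerS4epi-/- (adjusted p = 0.000197), in 1 cell of each ctr mouse against 33 and 15; the ctr levels rest on 7 and 4 counts, and no fold is given. Hbegf, an EGF receptor ligand, stood at 130 and 89.2 CPM in ctr and at 223 and 224 CPM in CerS4epi-/- (log2 0.97, SE 0.16, adjusted p = 0.00164). S100a9 (chr3:90599931-90603071, minus strand), a subunit of calprotectin, stood at 21.5 and 60.2 CPM in ctr and at 118 and 102.5 CPM in CerS4epi-/- (log2 1.57, SE 0.29, adjusted p = 0.00415). The call was lost without ctr mouse 1 (log2 0.87) and after thinning the sums (log2 1.26, adjusted p = 0.184). Without each mouse the value ran from 0.87 to 2.36. S100a9 was found in 12 of 152 and 12 of 92 ctr cells and in 97 of 273 and 55 of 197 CerS4epi-/- cells. With the cells thinned it was found in 3.29% and 5.43% against 16.5% and 10.2%. A rise was also seen in granular cells, few of which carried S100a9, from 0.647% and 0.711% of ctr cells to 2.89% and 6.37% of CerS4epi-/- cells. The genotype effect was called lower in the gated than in the granular cells. That difference ran from -3.28 to -1.86 on the log2 scale without each mouse, and the call was lost without ctr mouse 2. Neutrophils are a rich source of S100a9. Retnlg, Ly6g and Camp, which define them, had no count in any gated cell, and 7 neutrophil markers, led by Lcn2, summed to 1.20 and 0 CPM in ctr and to 0 and 22.1 CPM in CerS4epi-/-. Il36a was called (log2 1.47, adjusted p = 0.00775), but not without CerS4epi-/- mouse 1 (adjusted p = 0.0801) or the cells of high Lce1 (log2 0.77, adjusted p = 0.249).

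Lipid genes changed in both directions. Apoe, an apolipoprotein, stood at 171 and 145 CPM in ctr and at 846 and 1132 CPM in CerS4epi-/- (log2 2.61, SE 0.15, adjusted p = 2.96e-09), with 34.7% and 24.2% of the CerS4epi-/- counts from 1 cell of each mouse. Apoe was also far higher in Krt79-positive cells, at 13290 and 12447 CPM in the CerS4epi-/- mice. Scd2, a fatty acid desaturase, stood at 5.98 and 2.08 CPM in ctr and at 46.3 and 67.0 CPM in CerS4epi-/- (adjusted p = 6.13e-05), in 3 and 1 cells against 53 and 41; the ctr levels rest on 5 and 1 counts, and no fold is given. Elovl7, a fatty acid elongase, stood at 104 and 112 CPM in ctr and at 214 and 238 CPM in CerS4epi-/- (log2 1.06, SE 0.15, adjusted p = 0.000435). Cers2 (chr3:95221790-95234060, plus strand) fell from the levels given above (log2 -0.99, SE 0.18, adjusted p = 0.00305), while in Krt79-positive cells it did not pass the test (log2 -0.15, adjusted p = 0.543). The calls of Cers2 (log2 -0.74, adjusted p = 0.165) and Elovl7 (log2 0.83, adjusted p = 0.0726) were lost with the stricter gate. Of 26 barrier lipid genes 2 rose, Elovl7 and Degs1, and 1 fell, Cers2. The call of Degs1, a dihydroceramide desaturase (log2 1.07, adjusted p = 0.0314), was lost without CerS4epi-/- mouse 1 (log2 1.04) or ctr mouse 2 (log2 0.89). It was also lost with DESeq2 (log2 1.10, adjusted p = 0.444), the stricter gate (log2 1.33, adjusted p = 0.139) and the looser gate (log2 0.60, adjusted p = 0.206). The same held without the cells of high Lce1 (log2 0.97, adjusted p = 0.0973) and after thinning the sums (log2 0.92, adjusted p = 0.277).

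Camk2n1 and Timp3 led the falls among the genes that the naming rule put first. Camk2n1, an inhibitor of CaM kinase II, stood at 124 and 112 CPM in ctr and at 23.1 and 26.8 CPM in CerS4epi-/- (log2 -2.27, SE 0.21, adjusted p = 2.93e-06). Timp3 (chr10:86136236-86185371, plus strand), an inhibitor of metalloproteinases, stood at 252 and 264 CPM in ctr and at 75.9 and 64.3 CPM in CerS4epi-/- (log2 -1.88, SE 0.15, adjusted p = 3.45e-07), and it was lower in Krt79-positive cells of the same mice too (log2 -2.71). Stmn1, a microtubule regulator, stood at 276 and 214 CPM in ctr and at 109 and 123 CPM in CerS4epi-/- (log2 -1.11, SE 0.15, adjusted p = 0.000304). The genotypes did not overlap in any of these 3 genes. Cryab, Ccl6, Scgb1a1, Fst, Ubash3b and Acot7 fell by 1.62 to 1.13 on the log2 scale, Ubash3b and Acot7 with calls that were lost without a mouse (adjusted p = 0.0508 without CerS4epi-/- mouse 1 and 0.293 without ctr mouse 1), and that of Acot7 also without the cells of high Lce1 (log2 -1.24 against -1.13 with them, adjusted p = 0.0805). With the stricter gate Fst stood at -0.60 (adjusted p = 0.411). The calls of Ccl6 (log2 -1.80, adjusted p = 0.0842), Ubash3b (log2 -0.97, adjusted p = 0.17) and Acot7 (log2 -1.36, adjusted p = 0.068) were lost with that gate. After thinning the sums those of Fst (log2 -1.05, adjusted p = 0.0556), Ccl6 (log2 -1.46, adjusted p = 0.0517) and Acot7 (log2 -1.24, adjusted p = 0.163) were lost. Cald1 had 1 count in ctr and 273 in CerS4epi-/-, a ratio of 98.5 with a 95% counting interval of 17.5 to 3905, from 9 and 10 cells. Lce1i was called higher (log2 2.04, adjusted p = 0.014), but not without ctr mouse 1 (log2 1.45) or CerS4epi-/- mouse 1 (log2 0.96). With the looser gate its value was 0.23 (adjusted p = 0.87). The call was also lost with DESeq2 (log2 1.89, adjusted p = 0.75), without the 5% deepest cells (log2 1.97, adjusted p = 0.237) and after thinning the sums (log2 1.76, adjusted p = 0.132).

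**Figure D4:**
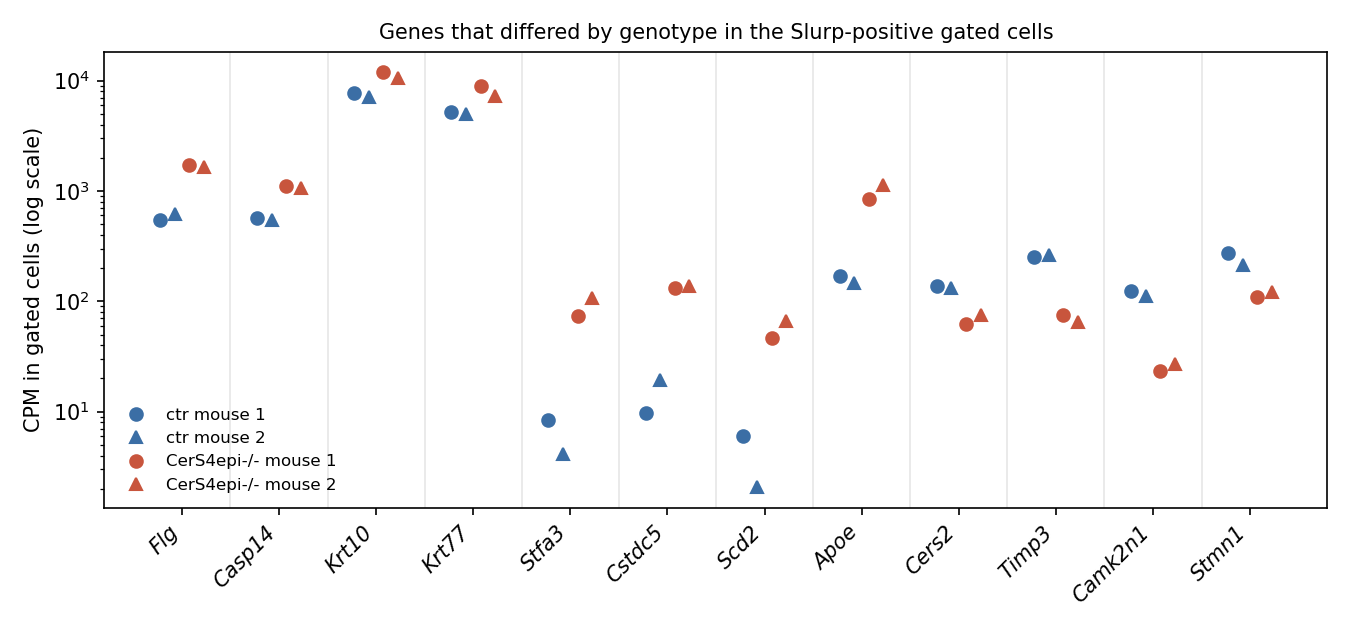
Level of 12 genes (CPM, log axis) in the gated cells of each mouse, with 1 point per mouse. The genotypes did not overlap in any gene shown; Flg lay at 550 and 620 CPM in ctr and at 1737 and 1654 CPM in CerS4epi-/-, and Timp3 at 252 and 264 CPM against 75.9 and 64.3 CPM.

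The class by genotype term asked whether genotype differences in gated cells differed from those in granular cells of the same mice. Of 9109 genes, 1194 were called (13.1%), 384 with a higher (4.22%) and 810 with a lower (8.89%) genotype effect in the gated cells. Within granular cells alone 2084 of 8582 genes were called between genotypes (24.3%), 14.8% higher and 9.53% lower. Of 16 dissociation and immediate early genes, 11 were higher and 1 lower there, with a median log2 fold change of 0.92 against -0.03 over all genes. In the class by genotype term 9 of the 16 were called lower and 2 higher. These genes respond to tissue digestion, and its part in these differences was not tested. The granular class itself was uneven, with a median Lce1 sum of 224 and 226.5 in ctr and 448 and 416 in CerS4epi-/-. The part of this in the values below was not tested. Spinous keratins differed in sign. Krt10 stood at 12202 and 12702 CPM in granular cells of the ctr mice and at 5537 and 5273 CPM in those of the CerS4epi-/- mice (log2 -0.90, SE 0.07), against the rise in gated cells (difference 1.45, SE 0.10, adjusted p = 8.07e-09). Krt77 (difference 1.02, adjusted p = 4.64e-07) and Krt1 (difference 1.89, adjusted p = 3.95e-07) behaved alike, and the 3 differences were called without the 105 gated cells of high Lce1 as well. The direction in cornifying cells outside the gate depended on how they were chosen: Slurp-positive cells without 2310046K23Rik had 10890 and 11131 CPM of Krt10 in ctr and 12938 and 13128 CPM in CerS4epi-/-. The median Lce1 sum of these cells was 202 and 129.5 in ctr and 28.5 and 16 in CerS4epi-/-, and its part in their Krt10 levels was not tested.

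Flg rose in both classes, by 1.53 in gated and 1.33 in granular cells on the log2 scale, and the difference did not pass the test (0.15, SE 0.12, adjusted p = 0.486). Envelope genes had lower genotype effects in the gated cells: 11 of 16 were called lower and 2 higher. Lor rose in granular cells (log2 0.60, SE 0.07) and differed from the gated cells by -0.86 (SE 0.08, adjusted p = 3.39e-07), and Flg2 differed by -0.82 (SE 0.10, adjusted p = 6.58e-06). Both calls were lost without the 105 cells of high Lce1, at differences of -0.45 (adjusted p = 0.28) and -0.50 (adjusted p = 0.224). Those of Crct1 (-0.73, adjusted p = 0.1), Ctsl (-0.52, adjusted p = 0.485), Cers3 (-0.04, adjusted p = 0.959) and Casp14 (-0.34, adjusted p = 0.379) were lost as well. Stmn1 fell in the gated cells and rose in granular cells (difference -1.94, SE 0.17, adjusted p = 2.55e-07).

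**Figure D5:**
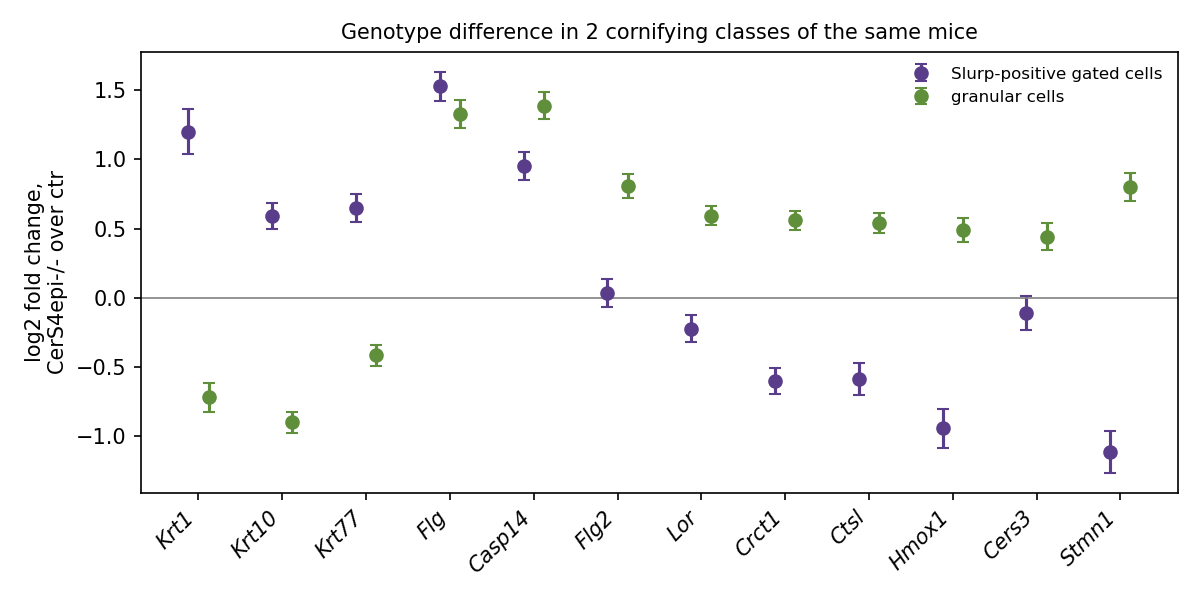
Log2 fold change of CerS4epi-/- over ctr for 12 genes in Slurp-positive gated cells and in granular cells of the same mice, with bars for the SE. Krt1, Krt10 and Krt77 lay above 0 in gated and below 0 in granular cells, and Flg at 1.53 and 1.33 in the 2 classes.

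Other cell types left few transcripts in the gated cells. T cell markers summed to at most 2.31 CPM, with Cd3d at 0, and Langerhans cell markers, led by H2-Aa, to 9.57 and 16.6 CPM in ctr and 9.26 and 10.05 CPM in CerS4epi-/-. Of macrophage markers, Lyz2, C1qa and C1qb had no count, and all 4 fibroblast markers were at 0. Counts of 3 correspond to 3.59 and 6.23 CPM in the ctr mice and to 1.39 and 2.01 CPM in the CerS4epi-/- mice. Levels below these values rest on fewer than 3 counts, and a count of 0 does not exclude a level up to them.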

How the data were processed

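Cells from back skin epidermis of 4 mice were profiled on the BD Rhapsody platform with sample tags. The deposited matrices hold estimated counts per gene and barcode: the authors trimmed reads with fastp (version 0.23.2) and counted unique molecules with STAR (version 2.7.10a) on GRCm39, sharing multimapped reads by expectation maximisation. Cell sums were rounded to whole numbers per mouse and class. The members and gene lists were chosen with earlier results of these data known. Sums were tested with edgeR 4.0.16 (TMM, filterByExpr, quasi-likelihood; R 4.3.3) over all genes, with the mouse as a block between classes; DESeq2 1.42.0 was an alternative. The scripts were tested on simulated data. There a true log2 change of 2 was recovered for 93.5% of genes between genotypes and 66.3% in the class by genotype term. A change of 1 was recovered for 48.4% and 21.4%, so a gene that did not pass may still differ. Genes named first were the 10 largest called rises and falls with at least 50 CPM in the higher group and the same side in every mouse; for the class by genotype term this was judged on log2 ratios of CPM + 1. A gene that this rule puts first is not reported here. Others come from the fixed lists and markers. Doublets were not called here. Coordinates are from Gencode vM39. Shares use SciPy 1.17.1.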

Additional observations from a re-analysis of the deposited data

Results flagged for a closer look

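The 20 genes below were singled out because the genotype difference in the Slurp-positive gated cells differed from that in granular cells of the same mice, by edgeR's test of the class by genotype term with an adjusted p under 0.05. Values are log2 differences, positive where CerS4epi-/- over ctr was higher in the gated cells. The positive ones were Hba-a1 (2.84), Krt6a (2.30), Rrm2 (2.25), Tubb2a (2.18), Fgfbp1 (2.07), Cnn2 (2.06), Aqp9 (2.04), Arhgap24 (2.02), Krt1 (1.89) and Slc39a8 (1.84). The negative ones were Fst (-2.89), Camk2n1 (-2.79), Psors1c2 (-2.58), Isg15 (-2.43), Gata6 (-2.39), Krt79 (-2.35), Dennd1b (-2.13), 3300005D01Rik (-2.12), S1pr4 (-1.97) and Ehf (-1.96). The sign of Isg15 turned with the stricter gate (4.58) and without the gated cells of high Lce1 (3.64). That of 3300005D01Rik turned without those cells (2.44).

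For Hba-a1, a haemoglobin chain, 87.9% of the counts in gated cells of CerS4epi-/- mouse 1 came from 1 cell, and without that mouse the difference was -0.20; the call was also lost without ctr mouse 1 or ctr mouse 2 (adjusted p = 0.112 and 0.0808). For Psors1c2, 85.8% of the counts of ctr mouse 2 came from 1 cell. In granular cells Gata6 stood at 0.482 to 5.15 CPM, from 2 to 9 counts per mouse, and Krt79 at 4.10 to 69.2 CPM, from 17 to 121 counts. Fst also had few counts there, and no fold between the classes was given above for Fst or Gata6. Their differences are therefore rough values. The Krt6a call was lost without ctr mouse 1 (adjusted p = 0.749) and without CerS4epi-/- mouse 2 (adjusted p = 0.0897), that of Slc39a8 without ctr mouse 1 or CerS4epi-/- mouse 1 (adjusted p = 0.294 and 0.512), and that of Krt79 without ctr mouse 2 (adjusted p = 0.0692). The Gata6 call was lost without ctr mouse 1, ctr mouse 2 or CerS4epi-/- mouse 2 (adjusted p = 0.128, 0.229 and 0.369), at -3.14 to -1.57 without each mouse. With DESeq2 the calls of Hba-a1, Krt6a, Slc39a8, Krt79 and Gata6 were lost (adjusted p = 0.618, 0.419, 0.157, 0.141 and 0.0719). Calls of Slc39a8, Gata6 and S1pr4 were lost without the gated cells of high Lce1 (adjusted p = 0.0647, 0.0762 and 0.0703), although the differences were then 1.80, -2.40 and -3.08, against 1.84, -2.39 and -1.97 with them. Leaving out 1 mouse also moved other values by more than 1.5 times. Camk2n1 stood at -3.81 without ctr mouse 1 and -2.18 without ctr mouse 2, and Psors1c2 at -3.17 and -1.58. Krt79 ran from -3.32 without ctr mouse 1 to -1.33 without CerS4epi-/- mouse 2, and Rrm2 from 1.5 without CerS4epi-/- mouse 1 to 2.86 without CerS4epi-/- mouse 2. Slc39a8 ran from 0.76 without CerS4epi-/- mouse 1 to 3.11 without CerS4epi-/- mouse 2, and Krt6a was 0.71 without ctr mouse 1 and 1.47 without CerS4epi-/- mouse 2.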

How the results depend on the processing

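Of the 200 genes called between genotypes, the number moved to 65 with DESeq2, 373 without a filter on low counts, 56 with a stricter gate, 108 without gated cells of high Lce1 (chosen after seeing the data), 70 after thinning the sums to equal totals and 149 to 227 without each mouse in turn. With replicate numbers as a block 372 were called (the replicate block). Deviations of same-numbered mice from their genotype means had r = 0.036 over 7552 genes. With 2 mice per genotype this is a single value, and it cannot decide whether the numbers pair mice. Of 49 genes named between genotypes, 28 kept their call without each mouse, 34 without cells of high Lce1 and 33 with DESeq2. Against granular cells 3633 calls became 2412 to 3351 without each mouse (2412 without CerS4epi-/- mouse 1) and 3447 with no replicate block; against Krt79-positive cells 4959 became 3651 to 4929, and 4466 with no replicate block. The class by genotype term gave 1194 calls, 660 with DESeq2, 598 without the 5% deepest cells, 586 without cells of high Lce1 and 633 to 1079 without each mouse (633 without ctr mouse 1); with DESeq2 size factors 287 were higher and 993 lower, against 384 and 810. Signs turned for Hba-a1 (-1.50 with the stricter gate, -0.20 to 3.81 without each mouse), Isg15 (4.58 with the stricter gate, 3.64 without cells of high Lce1) and 3300005D01Rik (2.44 without cells of high Lce1); the cause was not tested. The log2 ratio of shares, 1.01, ranged from 0.73 to 1.63 over other settings and from 0.65 to 1.48 without each mouse.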

Other observations

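Between genotypes, the median log2 fold change in the gated cells was 0.06 over 20 differentiation transcription factors, 0.06 over 16 junction genes and 0.17 over 12 mitochondrial genes, against -0.0020 over all genes tested. Of all genes tested 1.56% were called higher and 1.09% lower. Of 16 dissociation and immediate early genes 1 rose, Ier3, a call lost without ctr mouse 2 or CerS4epi-/- mouse 1 (adjusted p = 0.0953 and 0.0527) or the cells of high Lce1 (adjusted p = 0.165). Of 7 interferon genes 1 fell, B2m, a call lost without ctr mouse 1 or ctr mouse 2 (adjusted p = 0.055 and 0.106), and of 11 glutathione and NRF2 genes 1 fell, Hmox1, at 238 and 286 CPM in ctr and 133 and 139 CPM in CerS4epi-/- (log2 -0.94, adjusted p = 0.000823); without cells of high Lce1 its value was -0.89 (adjusted p = 0.259).

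Against granular cells, 9 of 16 dissociation and immediate early genes were higher in the gated cells and none lower, among them Fos at 2336 to 3612 CPM against 765 to 1640 CPM (log2 0.76, SE 0.18, adjusted p = 0.00703). These genes respond to tissue digestion, and its part in the difference was not tested. Of 8 interferon genes 7 were lower and none higher, among them Isg15 (log2 -3.14). Over all genes tested 19.3% were called higher and 20.6% lower in this comparison.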
